A study of Saccharomyces cerevisiae SK1 with 8 samples.

Results

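When a truncated Pus1 was induced in budding yeast that lacks the native PUS1 gene, 21 of the 5932 genes tested rose, PUS1 itself among them, and 9 fell. The rises included ADE17, YEL1, SKT5, YJL027C and MRX3, and the falls included the arginine synthesis genes ARG3, ARG5,6, ARG1, CPA1 and ARG8. The comparison used 4 of the 8 libraries of the study, chosen by their labels: 2 of the deletion with anhydrotetracycline (aTC, the inducer) and 2 of the deletion with its solvent DMSO. The other 4 libraries, 2 with aTC and 2 with DMSO, came from the strain with an intact PUS1 gene, called wild type here. They enter the estimate of spread in the 8-library fit, and their response is set beside that of the deletion. All cells were diploid SK1 yeast (MATa/alpha). Every strain, the controls included, carried a truncated and 3V5-tagged Pus1 (altPus1-3V5) under the tet operator promoter pTetO7.1 at his3, marked with HIS3. Every strain also carried TetR fused to the co-repressor Tup1 under pRNR2, and TetR under pTetO7.1, at ura3, marked with URA3. The deletion strain had KanMX in place of PUS1. Cultures in YEPD, a rich glucose medium, at 30 °C were given aTC or DMSO when diluted from overnight growth, and were collected after 3 h. No library comes from a strain without these constructs. Effects of the truncated protein, of aTC itself and of aTC acting through TetR or TetR-Tup1 therefore cannot be told apart. The replicates are labelled as biological, and p-values measure the spread between these cultures.

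Pus1 converts uridine to pseudouridine at several positions of nuclear tRNAs, in the U2 spliceosomal RNA and in some messenger RNAs. Yeast has further stand-alone pseudouridine synthases with other sites, and the H/ACA particles, guided by small nucleolar RNAs, modify ribosomal RNA. In the expression system used here, TetR and TetR-Tup1 keep the tet operator promoter silent, and aTC releases both from the operators.

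Total counts ran from 51331492 to 61960514 per library, and from 51331492 to 60057357 among the deletion libraries. At this depth a count of 0 allows up to 3 reads, which equal 0.0484 to 0.0584 CPM (read counts relative to TMM-scaled library size). Replicates of the deletion with aTC correlated across genes at r = 0.998 in log2 CPM and those of the deletion with DMSO at r = 0.999. The standard deviation of the replicate difference was 0.18 and 0.14 in these groups. It was 0.20 in wild type with aTC, the largest of the 4 groups, and 0.19 in wild type with DMSO. Along the first principal component of the 4 deletion libraries, computed without PUS1 and holding 62.1% of the variance, the aTC libraries lay at -10.2 and -4.51 and the DMSO libraries at 8.12 and 6.58. The second component (23.8%) separated the aTC replicates, at 5.22 and -7.59, while the DMSO replicates lay at 2.13 and 0.245. Of the haploid-specific genes, which MATa/alpha cells repress, STE4, for a G protein beta subunit, lay at 5.67 and 5.75 CPM with aTC and 4.30 and 4.84 CPM with DMSO.

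PUS1 (YPL212C, on the minus strand of chromosome 16 from 149155 to 150789 as the files give it) had 42829 and 51740 reads in the deletion with aTC, against 2 and 4 reads in the deletion with DMSO. In wild type it had 68028 and 56790 reads with aTC and 11004 and 12139 reads with DMSO. The counts hold no position within the gene, so native and truncated transcripts are joined in wild type, whereas in the deletion the native gene is gone. Scaled to library size, the deletion with aTC held 4.08 times the PUS1 reads of wild type with DMSO (95% counting interval 4.02 to 4.14) and 0.795 times those of wild type with aTC (0.788 to 0.801). Without aTC few PUS1 reads remained in the deletion, whose DMSO libraries lay at 0.0382 and 0.0654 CPM, close to the 3-read limit. HIS3, the marker named beside the construct, had no read in any of the 4 deletion libraries.

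Of the 8 other pseudouridine synthase genes, 0 were called by edgeR or DESeq2 (1 higher and 2 lower with p below 0.05 before adjustment). Over all 5932 tested genes, 622 were higher and 719 lower with edgeR p below 0.05 before adjustment. PUS9, for a mitochondrial tRNA enzyme, had 56.7 and 55.1 CPM in the deletion with aTC, against 63.6 and 62.6 CPM with DMSO. PUS4, whose product modifies the T loop of tRNAs, had 79.5 and 86.0 CPM with aTC, against 91.5 and 92.6 CPM with DMSO. PUS6, for another tRNA enzyme, had 23.0 and 22.7 CPM with aTC, against 20.4 and 19.3 CPM with DMSO. The aTC and DMSO libraries did not overlap for these 3 genes, as for 58.5% of all tested genes, and the edgeR quasi-likelihood adjusted p was 0.144, 0.219 and 0.133. PUS2, the close relative of PUS1, lay at 22.9 and 20.2 CPM with aTC and 22.5 and 25.2 CPM with DMSO, and these groups overlapped.

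Calls were made at an adjusted p below 0.05 in edgeR's quasi-likelihood test, with Benjamini-Hochberg adjustment over all 5932 tested genes. The fit of all 8 libraries called 30 genes (0.506%), with 21 higher (0.354%) and 9 lower (0.152%). Beside PUS1, 5 genes rose over 2-fold and 18 changed by less than 1.5-fold. The deletion libraries of all 30 genes did not overlap. That is common among all tested genes, of which 29.8% had both aTC libraries above both DMSO libraries and 28.7% had both below. RNA was taken from whole cultures, so a change per cell and a change in the share of cells that hold a transcript cannot be told apart.

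The number of calls differed between fits. Fitted alone, the 4 deletion libraries gave 231 genes higher (3.89%) and 473 lower (7.97%), and DESeq2 on all 8 libraries called 125 higher and 249 lower. All 30 genes were called by both. Without replicate 1 of the deletion with aTC (pus1del aTC), the 8-library design called 13 genes, without pus1del DMSO replicate 1 or replicate 2 it called 9 each, and leaving out either wild-type aTC library gave 583 (replicate 1) and 584 (replicate 2). The 9 genes called with every library left out were PUS1, ADE17, YEL1, SKT5, YJL027C, MRX3, ARG3, ARG8 and CPA1. Each of the other 21 lost its call without at least 1 deletion library, and YHB1 and RHO4 also without either WT DMSO library. Below, the 8-library fit gives each p unless the 4-library fit is named.

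**Figure D1:**
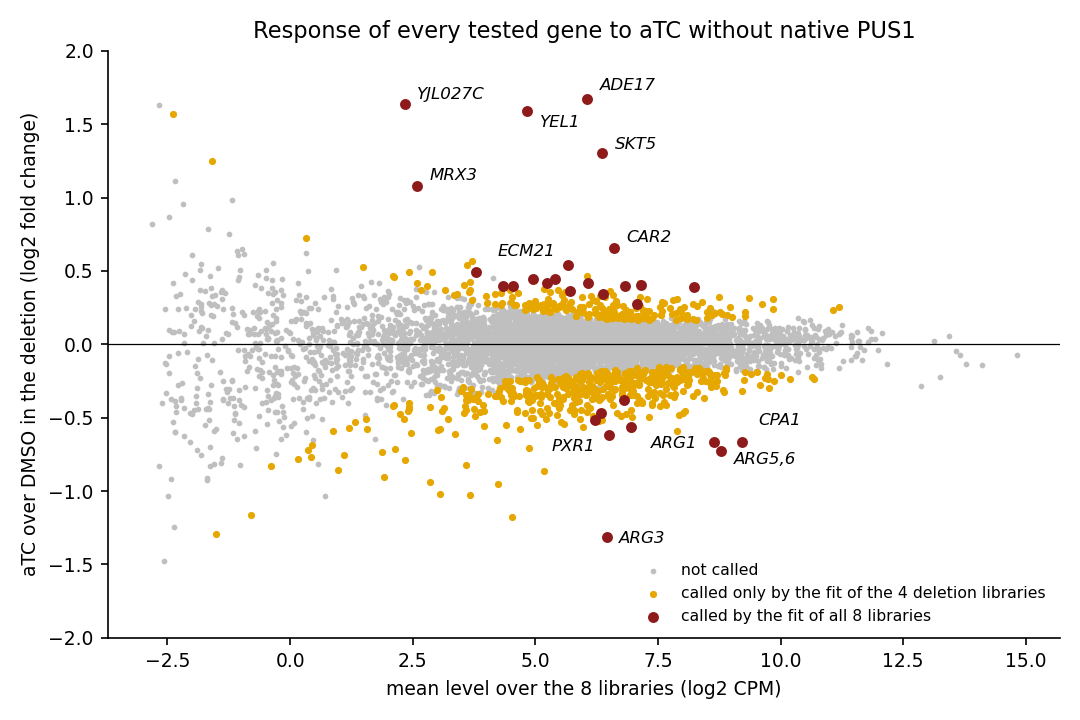
Response to aTC in the deletion (log2 fold change, aTC over DMSO) against mean level (log2 CPM over 8 libraries) for the tested genes. Dark points are the called genes, yellow points those called only by the fit of the 4 deletion libraries, and PUS1 (log2 13.89) and the low-count YOR203W lie outside the axis. ADE17, YJL027C, YEL1, SKT5 and MRX3 stand above all other called genes, and ARG3 stands lowest among the called genes.

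The clearest rises beside PUS1 were in genes of unlike functions. ADE17 (YMR120C, chromosome 13, 484159 to 485936, minus strand) encodes an enzyme of the last steps of purine synthesis. It had 95.1 and 98.5 CPM in the deletion with aTC, against 32.1 and 28.7 CPM with DMSO (log2 1.67, SE 0.069, edgeR adjusted p = 1.36e-07). ADE16, for the isozyme of the same reactions, had a log2 of 0.09 (adjusted p = 0.347), and 1 of the 22 tested genes of purine synthesis, ADE17 itself, was called. By the 4-library fit 2 others of that list (9.09%) were lower, near the 7.97% of all tested genes. They were ADE8 (log2 -0.18) and the purine permease gene FCY2 (log2 -0.25).

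YEL1 and SKT5 rose together and are neighbours on chromosome 2, read away from each other with 525 bases between their start codons. YEL1 (YBL060W, 101062 to 103125, plus strand) encodes an exchange factor that activates the small GTPase Arf3 at the bud. It had 42.97 and 44.93 CPM in the deletion with aTC, against 14.4 and 14.8 CPM with DMSO (log2 1.59, SE 0.0659, adjusted p = 1.36e-07). SKT5 (YBL061C, 98448 to 100536, minus strand), also called CHS4, encodes the activator of chitin synthase III, and had 108 and 116 CPM with aTC, against 43.99 and 46.77 CPM with DMSO (log2 1.30, SE 0.062, adjusted p = 4.65e-07). SKT5 overlaps another listed gene, so its counts are less certain. The chitin synthase III gene CHS3 had a log2 of 0.01 (adjusted p = 0.919), and SKT5 was the 1 called gene of 23 in the chitin and septum list. Of 16 genes for Arf exchange factors and regulators, YEL1 was the 1 called.

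The remaining large rises were at lower read counts. YJL027C (chromosome 10, 370707 to 371123, minus strand), an open reading frame without a standard name beside RNR2, had 8.21 and 7.22 CPM in the deletion with aTC, against 2.64 and 2.32 CPM with DMSO (log2 1.64, SE 0.155, adjusted p = 0.000415). The repressor construct also holds pRNR2, and whether that copy adds reads to YJL027C was not tested. MRX3 (YBL095W, chromosome 2, 36447 to 37259, plus strand), for a protein of the mitochondrial gene expression complexes, had 8.06 and 8.25 CPM with aTC, against 3.38 and 4.32 CPM with DMSO (log2 1.08, SE 0.119, adjusted p = 0.00137). MRX3 overlaps YBL096C and YBL094C, whose own levels were at most 1.49 CPM in the deletion libraries. The fewest reads that any called gene beside PUS1 had in a deletion library was 138. MRX3, BNA4 (start 32327) and ECM21 (start 24485) lie close together on the left arm of chromosome 2, and all 3 rose. They were set together after their values were seen. ATP1 (YBL099W), between BNA4 and ECM21 by its systematic name, had a log2 of -0.08 (adjusted p = 0.511).

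The promoters of this group are shown to let their letters be compared. Windows run from 250 bases before to 50 after the start codon and come from the RefSeq S288C assembly R64, looked up by systematic name, and the SK1 sequence may differ. Capitals mark TGACTC, the core of sites for the activators Gcn4 and Bas1, and TGATAG, the half-site of the tet operator, searched on both strands.
ADE17 (R64 chrXIII:509231-509530, minus strand): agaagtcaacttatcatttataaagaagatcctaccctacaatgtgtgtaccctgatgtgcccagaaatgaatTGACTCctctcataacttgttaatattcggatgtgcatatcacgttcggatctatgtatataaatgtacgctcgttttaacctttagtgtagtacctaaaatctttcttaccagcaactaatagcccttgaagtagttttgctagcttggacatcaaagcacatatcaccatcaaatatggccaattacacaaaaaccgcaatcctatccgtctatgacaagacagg
YEL1 (R64 chrII:107682-107981, plus strand): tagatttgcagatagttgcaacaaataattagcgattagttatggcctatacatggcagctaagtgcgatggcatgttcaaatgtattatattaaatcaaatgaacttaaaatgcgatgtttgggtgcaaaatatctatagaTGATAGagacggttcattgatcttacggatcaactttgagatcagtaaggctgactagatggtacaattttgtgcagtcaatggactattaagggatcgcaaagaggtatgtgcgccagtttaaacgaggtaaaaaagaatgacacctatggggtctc
SKT5 (R64 chrII:107357-107656, minus strand): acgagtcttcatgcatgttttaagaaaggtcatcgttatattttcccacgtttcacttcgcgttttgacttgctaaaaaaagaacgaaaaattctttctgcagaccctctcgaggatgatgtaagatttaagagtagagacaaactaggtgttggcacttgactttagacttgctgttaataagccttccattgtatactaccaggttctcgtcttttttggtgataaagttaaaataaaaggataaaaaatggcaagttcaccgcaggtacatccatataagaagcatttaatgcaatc
The ADE17 window holds TGACTC, whose first base lies at -177 from the start codon, and the YEL1 window holds TGATAG at -108. The SKT5 window holds neither. TGACTC occurs in 7.98% of the 6001 promoters read and in 5 of the 21 called higher (ECM21, BNA4, CAR2, ADE17 and MRM1). TGATAG occurs in 14.9% of all promoters and in 4 of the 21 (MRX3, YEL1, SVP26 and ULA1), which is 19.0%. TGATAG with an exact copy of its partner site of the tet operator, CTATCA, 1 base away was found in 0 of the 6001 promoters, YEL1 included. Partner sites that differ in some letters were not searched for. In the YEL1 window the letters directly before TGATAG are CTATAGA, which share CTAT with that site. These are matches of letters only.

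Of the 10 tested genes of arginine synthesis 5 fell and 0 rose in both the 8-library and the 4-library fit. Among all tested genes 0.152% fell in the 8-library fit and 7.97% in the 4-library fit. The median log2 of the arginine synthesis genes was -0.37, against 0.00 over all tested genes. It was -0.18 when genes that overlap another were left out. ARG3 (YJL088W, chromosome 10, 247230 to 248246), for ornithine carbamoyltransferase, had 42.8 and 44.7 CPM in the deletion with aTC, against 106 and 111 CPM with DMSO (log2 -1.31, SE 0.104, adjusted p = 8.53e-05). ARG5,6 (YER069W), whose product is cut into enzymes of 2 consecutive steps, had 327 and 320 CPM with aTC, against 529 and 544 CPM with DMSO (log2 -0.73, SE 0.0932, adjusted p = 0.00395). ARG1 (YOL058W), for argininosuccinate synthetase, had 287 and 299 CPM with aTC, against 469 and 462 CPM with DMSO (log2 -0.67, SE 0.118, adjusted p = 0.0407). The groups stood well apart for each of these genes, as they did for the next pair.

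CPA1 (YOR303W), for the small subunit of carbamoyl phosphate synthetase, had 461 and 445 CPM with aTC, against 698 and 736 CPM with DMSO (log2 -0.66, SE 0.0697, adjusted p = 0.000907). ARG8 (YOL140W), for acetylornithine aminotransferase, had 102 and 94.0 CPM with aTC, against 144 and 145 CPM with DMSO (log2 -0.57, SE 0.0582, adjusted p = 0.000841). Other genes of the pathway did not pass the test. ARG7 had a log2 of -0.10, ORT1, the ornithine exporter gene of mitochondria, -0.07, and ARG2, for the first committed enzyme, -0.01. ARG4, for the last enzyme of the pathway, had the 1 positive value of the 10 genes. YOR302W, the short upstream frame in the leader of CPA1 that encodes the arginine attenuator peptide, had 7.23 and 10.7 CPM with aTC, against 18.5 and 18.1 CPM with DMSO (log2 -1.03, adjusted p = 0.0568, and 0.00027 in the 4-library fit). It was looked up after the CPA1 values were seen.

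Of 14 genes of arginine breakdown, uptake and control, 2 rose and 0 fell in the 8-library fit, where 0.354% of all tested genes rose. The median log2 of the 14 was 0.07 and ran from -0.01 to 0.08 with 1 library left out. In yeast grown with arginine, the ArgR complex with Mcm1 represses several ARG genes and activates CAR1 and CAR2. CAR2 (YLR438W), for ornithine transaminase, had 117 and 109 CPM in the deletion with aTC, against 73.2 and 70.4 CPM with DMSO (log2 0.65, SE 0.0779, adjusted p = 0.00242), and it overlaps another listed gene. CAN1 (YEL063C), the arginine permease gene, had 355 and 338 CPM with aTC, against 267 and 261 CPM with DMSO (log2 0.39, SE 0.0612, adjusted p = 0.0175). CAR1, for arginase, had 65.0 and 55.6 CPM with aTC, against 49.3 and 49.6 CPM with DMSO (log2 0.29, adjusted p = 0.0863, and 0.0231 in the 4-library fit). The regulator genes ARG80 (log2 -0.07), ARG81 (0.04) and ARG82 (0.10) did not pass, and MCM1 had a log2 of -0.31 (adjusted p = 0.117, and 0.033 in the 4-library fit).

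Of 51 other amino acid synthesis genes under the activator Gcn4, 0 were called, and their median log2 was 0.00. Before adjustment 3 were higher and 6 lower with p below 0.05, against 622 and 719 of all 5932 tested genes. DESeq2 called 3 of the list lower, against 249 of all 5932 tested genes. By the 4-library fit 1 (1.96%) was higher and 2 (3.92%) were lower, where 3.89% of all tested genes were higher and 7.97% lower. Among them were GLN1, for glutamine synthetase (log2 -0.29), and HOM3, for aspartate kinase (log2 -0.19). MET6, for methionine synthase, had 847 and 859 CPM with aTC, against 696 and 718 CPM with DMSO (log2 0.27, adjusted p = 0.0694, and 0.00646 in the 4-library fit).

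**Figure D2:**
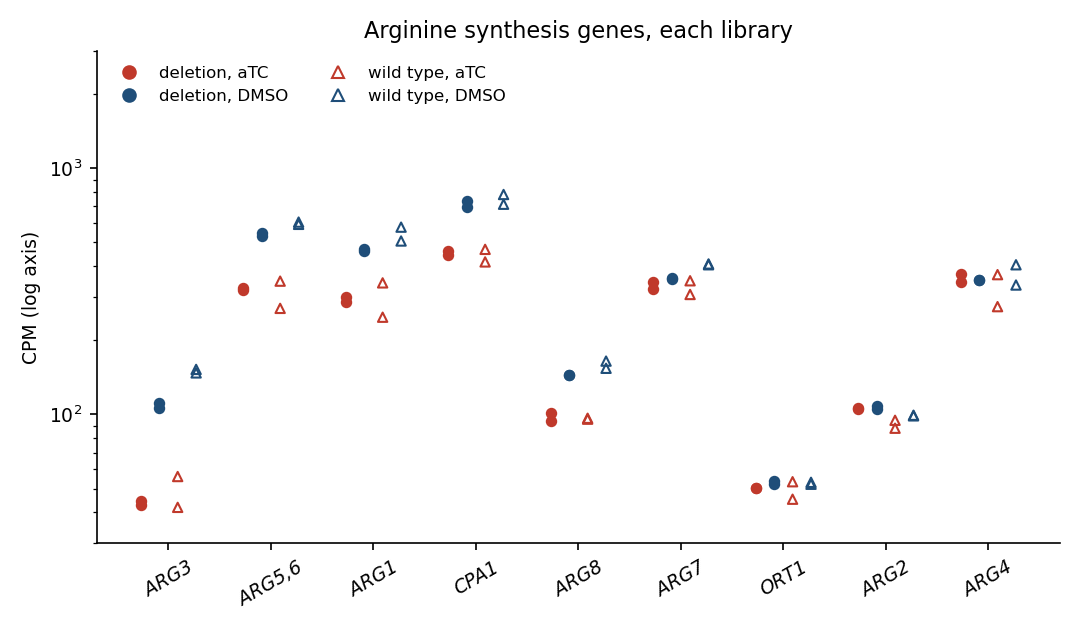
Level of 9 arginine synthesis genes in each library (CPM, log axis), ordered by their log2 fold change in the deletion. Filled red circles are the deletion with aTC and filled blue circles the deletion with DMSO, with wild type beside them as open triangles in the same colours. ARG3, ARG5,6, ARG1, CPA1 and ARG8 lie lower with aTC in both strains, while the deletion libraries of ARG2 and ARG4 overlap.

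Promoters of the arginine genes differ in what they hold. ARG3, the deepest fall, and ARG8, with a Gcn4 core in capitals, are shown.
ARG3 (R64 chrX:268549-268848, plus strand): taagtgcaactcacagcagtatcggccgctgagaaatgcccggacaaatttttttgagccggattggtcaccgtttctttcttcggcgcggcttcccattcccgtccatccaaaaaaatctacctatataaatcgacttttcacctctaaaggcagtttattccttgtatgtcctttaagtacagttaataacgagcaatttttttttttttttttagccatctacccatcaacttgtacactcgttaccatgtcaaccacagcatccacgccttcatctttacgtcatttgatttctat
ARG8 (R64 chrXV:58509-58808, plus strand): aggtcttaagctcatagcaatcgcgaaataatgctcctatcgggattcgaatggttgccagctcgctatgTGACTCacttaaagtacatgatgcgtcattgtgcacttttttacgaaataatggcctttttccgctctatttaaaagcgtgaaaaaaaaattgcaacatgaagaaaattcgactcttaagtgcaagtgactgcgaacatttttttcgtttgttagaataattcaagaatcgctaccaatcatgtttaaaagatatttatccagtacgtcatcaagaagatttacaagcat
TGACTC lies at -180 in the ARG8 window and is not among the letters of the ARG3 window. It occurs in 6 of the 10 arginine synthesis promoters (ARG2, ARG4, ARG5,6, ARG7, ARG8 and ORT1) and in 52.9% of the other Gcn4-controlled genes, so the called ARG3, ARG1 and CPA1 lack it in this window while the uncalled ARG2, ARG4, ARG7 and ORT1 hold it.

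The smaller rises, at log2 values from 0.27 to 0.54, included genes of membrane traffic, lipids and NAD. ECM21 (YBL101C), for an arrestin-related adaptor that directs the ubiquitin ligase Rsp5 to plasma membrane transporters, had 61.0 and 64.3 CPM with aTC, against 43.8 and 42.3 CPM with DMSO (log2 0.54, adjusted p = 0.00395). It was the 1 called gene of 13 arrestin-related adaptors. YPC1, for a ceramidase, had 17.1 and 18.6 CPM with aTC, against 12.9 and 12.5 CPM with DMSO (log2 0.50, adjusted p = 0.0445). It was the 1 called of 28 ceramide and sphingolipid genes. BNA4, for a step of NAD synthesis from tryptophan, had 50.7 and 45.3 CPM with aTC, against 36.4 and 34.2 CPM with DMSO (log2 0.44, adjusted p = 0.0321).

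Of 16 NAD synthesis genes 4 were higher and 0 lower in the 4-library fit, against 3.89% higher among all tested genes. Among these, BNA5, for the next enzyme after Bna4, had 56.8 and 55.1 CPM with aTC, against 43.62 and 44.96 CPM with DMSO (log2 0.34, adjusted p = 0.0638, and 0.00344 in the 4-library fit). PNC1, for nicotinamidase, had a log2 of 0.33 and URH1, for a nucleoside hydrolase, 0.20. The median of the NAD list was 0.12.

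ALD4, for a mitochondrial aldehyde dehydrogenase, had 91.8 and 84.4 CPM with aTC, against 68.2 and 63.9 CPM with DMSO (log2 0.42, adjusted p = 0.0175). RML2, for a protein of the large mitochondrial ribosomal subunit, had 135 and 125 CPM with aTC, against 103 and 94.6 CPM with DMSO (log2 0.40, adjusted p = 0.0234). MRM1, for a methyltransferase of mitochondrial ribosomal RNA, had 59.0 and 61.8 CPM with aTC, against 47.6 and 46.3 CPM with DMSO (log2 0.36, adjusted p = 0.0175). RML2 and MRM1 overlap other listed genes, and MRM1 lies next to HIS3. YHB1, for the flavohemoglobin that detoxifies nitric oxide, rose by a log2 of 0.27.

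The others called higher were NNK1, for a protein kinase (log2 0.45), ULA1, for a subunit of the enzyme that activates the ubiquitin-like Rub1 (0.42), YCP4, for a flavodoxin-like protein (0.40), PET18 (0.40), RHO4, for a GTPase of cell polarity (0.40), and SVP26, for an ER membrane protein of cargo export (0.34). Their adjusted p ran from 0.012 to 0.0483. For each the aTC libraries lay above the DMSO libraries, with RHO4 at 23.7 and 23.8 CPM with aTC, against 18.8 and 17.3 CPM with DMSO. The falls outside arginine and ribosome assembly were PHO84, the high-affinity phosphate transporter gene (log2 -0.52, adjusted p = 0.0446), and GFD2, a gene linked to mRNA export (log2 -0.38, adjusted p = 0.0445). PHO84 had 73.4 and 59.5 CPM with aTC, against 99.4 and 90.6 CPM with DMSO. Of 26 phosphate genes it was the 1 called. PHO4, for the activator of that regulon, had 43.2 and 51.9 CPM with aTC, against 63.1 and 66.4 CPM with DMSO (log2 -0.45, adjusted p = 0.0699, and 0.00221 in the 4-library fit).

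**Figure D3:**
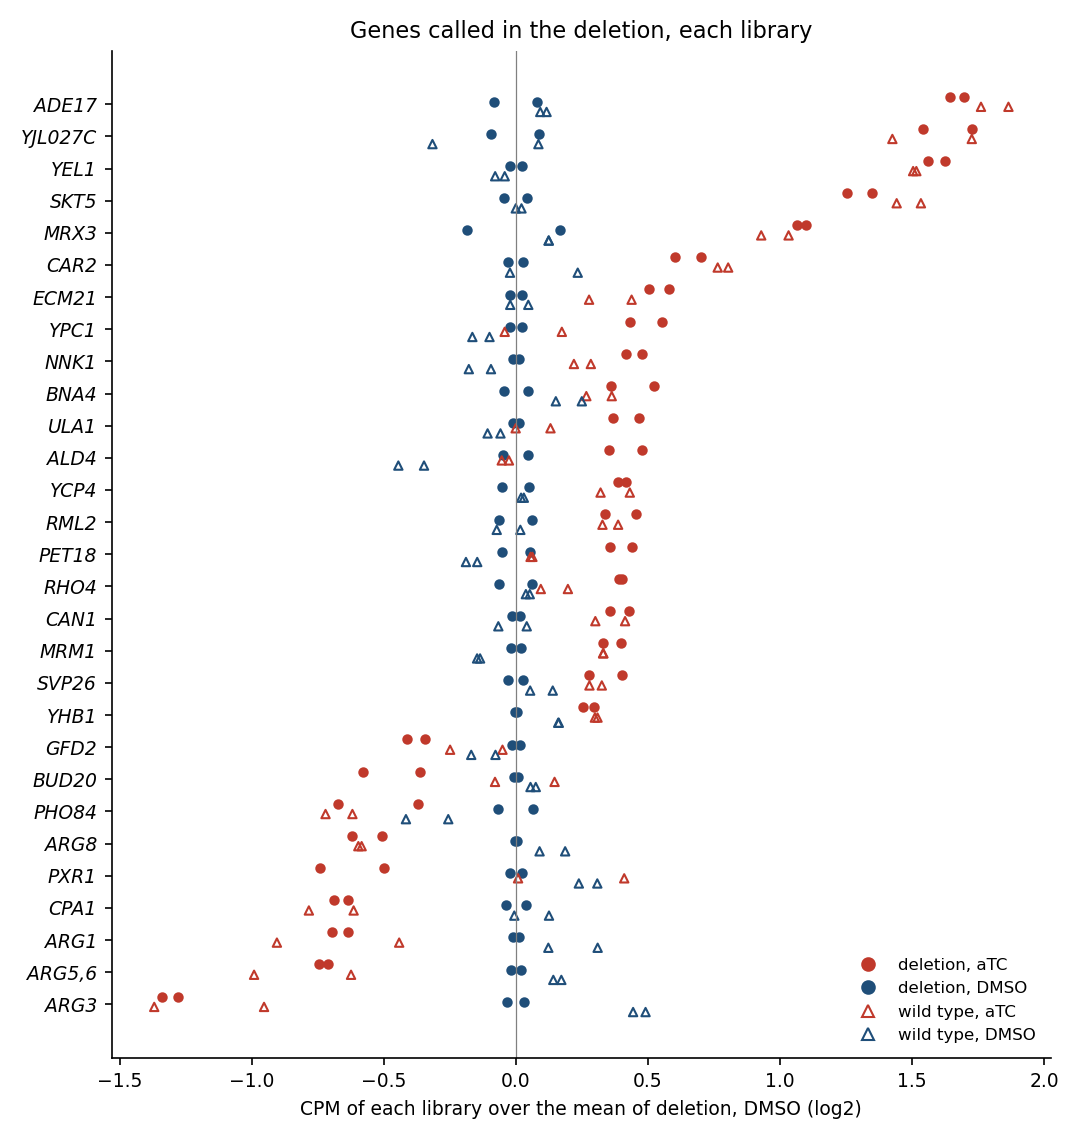
Each library's level of the 29 genes called beside PUS1, as log2 of its CPM over the mean of the deletion with DMSO. Filled circles are the deletion and open triangles wild type, red with aTC and blue with DMSO. Both deletion aTC libraries lie clear of both deletion DMSO libraries for every gene shown, while the wild-type libraries of PXR1, BUD20 and GFD2 overlap.

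Ribosome assembly genes act mainly in the nucleolus to build the ribosomal subunits. Of 146 tested, 2 fell and 0 rose in the 8-library fit, where 0.152% of all tested genes fell. In the 4-library fit 80 were lower and 0 higher, where 7.97% of all tested genes were lower. The median log2 was -0.18, and for 110 genes both aTC libraries lay below both DMSO libraries, against 5 with the reverse. Among all tested genes 28.7% had both below and 29.8% had both above. PXR1 (YGR280C, chromosome 7, 1040438 to 1041253), for a factor of ribosomal RNA and small nucleolar RNA processing, had 54.08 and 64.03 CPM with aTC, against 89.1 and 91.8 CPM with DMSO (log2 -0.62, SE 0.114, adjusted p = 0.0446). BUD20 (YLR074C, chromosome 12, 262809 to 263309), for a factor that travels out of the nucleus with the large subunit precursor, had 56.9 and 66.1 CPM with aTC, against 85.6 and 84.5 CPM with DMSO (log2 -0.47, SE 0.084, adjusted p = 0.0416). Both genes lost the call without pus1del aTC replicate 1 or without either pus1del DMSO library, and PXR1 also without pus1del aTC replicate 2.

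In large subunit assembly the median log2 was -0.21 over 70 genes, and 40 were lower in the 4-library fit. CGR1 had 17.01 and 19.97 CPM with aTC, against 31.2 and 29.2 CPM with DMSO (log2 -0.71, adjusted p = 0.0763, and 0.00016 in the 4-library fit). DRS1, for an RNA helicase of the large subunit precursor, had 180 and 196 CPM with aTC, against 259 and 261 CPM with DMSO (log2 -0.47, adjusted p = 0.0694, and 0.00011 in the 4-library fit). NOG2, for a GTPase, had a log2 of -0.28 and NOP8 of -0.37. NIP7, the large subunit factor gene that also neighbours PUS1, had 127 and 112 CPM with aTC, against 120 and 120 CPM with DMSO, and these overlapped.

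In small subunit assembly the median log2 was -0.18 over 76 genes, and 40 were lower in the 4-library fit. NOB1, for the nuclease that makes the final cut of 18S ribosomal RNA, had 99.8 and 109 CPM with aTC, against 140 and 135 CPM with DMSO (log2 -0.40, adjusted p = 0.0699, and 0.000482 in the 4-library fit). BUD21 (log2 -0.44), ESF2 (-0.45) and LCP5 (-0.38), components of the small subunit precursor, were also lower in the 4-library fit. Relative to the mean of the deletion with DMSO, the median member of small subunit assembly lay at -0.20 and -0.19 in the deletion with aTC. In wild type it lay at 0.25 and -0.01 with aTC and at 0.19 and 0.09 with DMSO, so the wild-type aTC replicates disagreed and straddled their DMSO controls.

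Short transcripts were slightly lower in general, with a median log2 of -0.05 over 1023 genes of up to 500 nucleotides. Within length classes the ribosome assembly genes stayed lower, at median log2 values of -0.28 for 41 genes of 501 to 1000 nucleotides, -0.17 for 64 genes of 1001 to 2000 and -0.15 for 39 longer genes. The corresponding medians over all genes were 0.00, 0.02 and 0.01.

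The promoters of PXR1 and BUD20 are shown because both hold the sequence elements that most ribosome assembly genes share. Capitals mark GATGAG, the core of the PAC element, and AAAATTTT, the core of the RRPE element, which reads the same on both strands.
PXR1 (R64 chrVII:1051676-1051975, minus strand): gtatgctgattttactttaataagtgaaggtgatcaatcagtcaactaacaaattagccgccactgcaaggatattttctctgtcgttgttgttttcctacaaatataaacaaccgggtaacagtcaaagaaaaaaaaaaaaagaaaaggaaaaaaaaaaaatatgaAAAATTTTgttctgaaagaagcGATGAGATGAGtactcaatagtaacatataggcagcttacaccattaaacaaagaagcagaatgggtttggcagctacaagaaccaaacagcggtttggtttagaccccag
BUD20 (R64 chrXII:282407-282706, minus strand): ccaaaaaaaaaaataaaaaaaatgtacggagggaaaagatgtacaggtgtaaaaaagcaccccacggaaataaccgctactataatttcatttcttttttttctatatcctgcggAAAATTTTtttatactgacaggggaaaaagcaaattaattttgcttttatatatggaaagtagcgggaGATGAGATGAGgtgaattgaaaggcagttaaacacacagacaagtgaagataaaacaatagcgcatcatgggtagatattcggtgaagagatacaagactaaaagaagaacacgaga
In both windows 2 copies of GATGAG overlap by 1 base, with first bases at -61 and -56 in PXR1 and at -67 and -62 in BUD20, and AAAATTTT begins at -83 in PXR1 and at -135 in BUD20. GATGAG on either strand occurs in 88.6% of large subunit and 89.5% of small subunit assembly promoters, and in 20.4% of all promoters. AAAATTTT occurs in 56 of 70 large subunit and 56 of 76 small subunit assembly promoters and in 9.03% of all promoters. Among the genes lower in the 4-library fit, 37.8% hold GATGAG and 25.9% AAAATTTT, and among those higher, 16.1% and 4.46%.

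**Figure D4:**
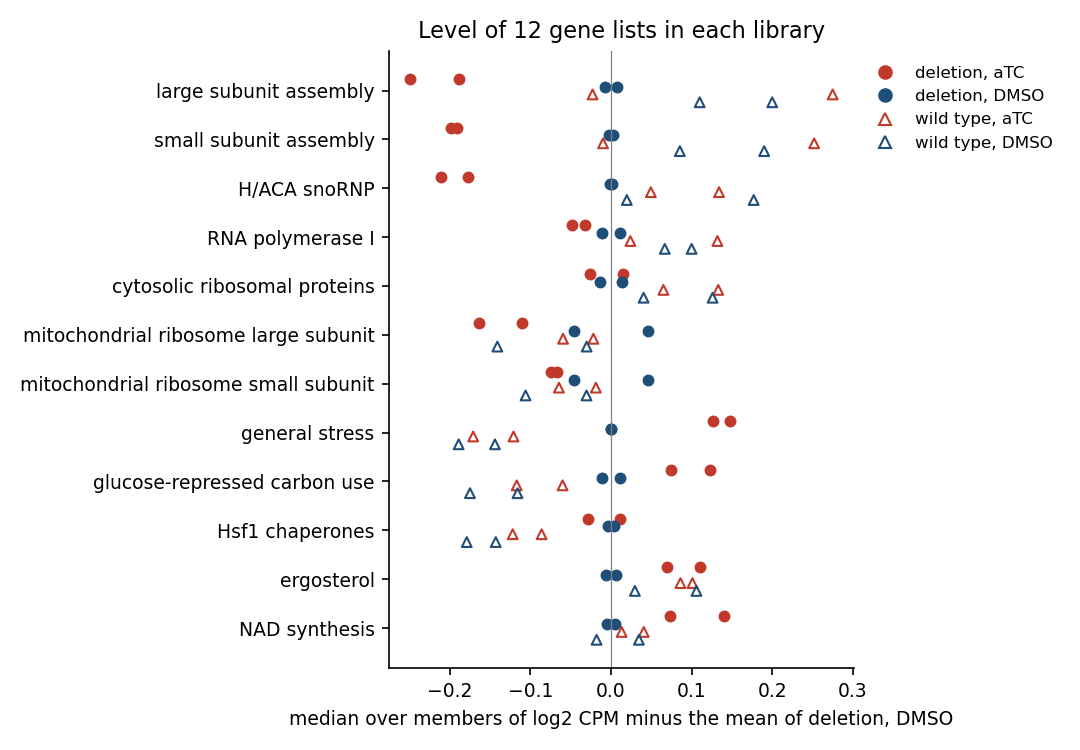
Median over the members of 12 gene lists of log2 CPM minus the mean of the deletion with DMSO, one symbol per library. Filled circles are the deletion and open triangles wild type, red with aTC and blue with DMSO. For large and small subunit assembly the deletion aTC libraries lie lowest of all 8, and for general stress they lie highest.

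Of 6 H/ACA particle and assembly genes 0 were called, at a median log2 of -0.21. Before adjustment 4 were lower with p below 0.05, against 719 of all 5932 tested genes. DESeq2 called 1 lower, against 249 of all tested genes. In the 4-library fit 4 were lower: NHP2 (log2 -0.31), NAF1 (-0.22), SHQ1 (-0.22) and NOP10 (-0.20). CBF5, the H/ACA pseudouridine synthase itself, had a log2 of -0.09 (adjusted p = 0.401). Of 44 tRNA modification genes 5 (11.4%) were lower in the 4-library fit, against 7.97% of all tested genes, among them TRM10 and DUS3. TRM10, for a methyltransferase of guanosine in tRNA, had 42.5 and 48.4 CPM with aTC, against 60.8 and 58.4 CPM with DMSO. DUS3, for a dihydrouridine synthase, had 99.3 and 108 CPM with aTC, against 132 and 132 CPM with DMSO. The tRNA modification median was -0.04.

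Genes that handle or charge tRNA showed no calls in either fit. For tRNA splicing and export, 0 of 18 genes were called by edgeR or DESeq2, with a median log2 of 0.06. Before adjustment 1 was higher and 2 lower with p below 0.05, against 622 and 719 of all 5932 tested genes. For aminoacyl-tRNA synthetases, 0 of 36 were called by either tool and 0 had p below 0.05 before adjustment, with a median of 0.03. The 137 cytosolic ribosomal protein genes had a median of -0.01, with 2 (1.46%) higher and 14 (10.2%) lower in the 4-library fit. Among all tested genes 3.89% were higher and 7.97% lower in that fit. RPL41B, 1 of a pair of near-identical genes whose unique counts are uncertain, had 11.95 and 19.48 CPM with aTC, against 35.8 and 35.3 CPM with DMSO (log2 -1.18, adjusted p = 0.0638). Of 18 RNA polymerase I genes 3 (16.7%) were lower in the 4-library fit (median -0.06), with RRN11 at a log2 of -0.29. Of 19 RNA polymerase III genes 3 (15.8%) were lower (median -0.03, and of either sign with 1 library left out), with RPC53 at -0.33.

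In the mitochondrial ribosome the median log2 was -0.11 over 44 large subunit genes, of which 7 (15.9%) were lower in the 4-library fit and RML2 rose. It was -0.07 over 35 small subunit genes, of which 6 (17.1%) were lower, where 7.97% of all tested genes were lower. MRPL31 had 30.1 and 32.0 CPM with aTC, against 43.95 and 40.05 CPM with DMSO (log2 -0.44, adjusted p = 0.0749, and 0.00157 in the 4-library fit). The median large subunit member lay at -0.16 and -0.11 in the deletion with aTC, against 0.05 and -0.05 with DMSO. Respiratory chain and ATP synthase genes had a median of 0.00.

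The list of 50 general stress genes holds mainly targets of the activators Msn2 and Msn4, and also the regulator genes MSN2, MSN4, GIS1 and RIM15. Of the 50, 0 were called in the 8-library fit. DESeq2 called 7 higher, against 125 of all 5932 tested genes. Before adjustment 17 were higher and 1 lower with p below 0.05, against 622 and 719 of all 5932 tested genes. In the 4-library fit 11 were higher and 0 lower, against 3.89% higher among all tested genes, at a median log2 of 0.14. TPS1, for trehalose phosphate synthase, had 114 and 119 CPM with aTC, against 94.0 and 90.0 CPM with DMSO (log2 0.34, adjusted p = 0.0797, and 0.00123 in the 4-library fit). GRE3, for an aldose reductase, had 72.7 and 72.9 CPM with aTC, against 58.6 and 57.8 CPM with DMSO (log2 0.32, adjusted p = 0.0699). HSP12, a strong stress marker, had the opposite sign (log2 -0.60, adjusted p = 0.276), and CTT1, for catalase, a log2 of 0.05. AGGGG, the element Msn2 and Msn4 bind, occurs on either strand in 58.0% of these promoters, 29.0% of those higher in the 4-library fit, 19.7% of those lower and 21.6% of all.

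Among 38 glucose-repressed genes ALD4 was called, at a median log2 of 0.10. In the 4-library fit 7 (18.4%) were higher and 1 (2.63%) lower, where 3.89% of all tested genes were higher and 7.97% lower. CAT2, for carnitine acetyltransferase, had 15.2 and 14.0 CPM with aTC, against 10.6 and 11.5 CPM with DMSO, and IDH2, for isocitrate dehydrogenase, had 502 and 455 CPM with aTC, against 386 and 378 CPM with DMSO. HXK1, the hexokinase gene that is repressed by glucose, had 18.8 and 21.1 CPM with aTC, against 13.6 and 13.3 CPM with DMSO (log2 0.57, adjusted p = 0.0973, and 0.001 in the 4-library fit). The glucose transporter genes HXT1 (log2 -0.32) and HXT3 (-0.24) were lower in the 4-library fit. The stress genes also lay apart by strain, a difference that was not tested: the median member lay at 0.13 and 0.15 in the deletion with aTC and at 0.00 in both deletion DMSO libraries, and between -0.19 and -0.12 in the wild-type libraries.

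Of 28 ergosterol genes 6 (21.4%) were higher and 0 lower in the 4-library fit, with ERG13, for the synthase of the mevalonate precursor, at 989 and 990 CPM with aTC, against 819 and 858 CPM with DMSO (log2 0.24, adjusted p = 0.0638). Of 27 iron genes 4 (14.8%) were higher and 0 lower in that fit, where 3.89% of all tested genes were higher. RPN4, for the activator of proteasome genes, had 75.7 and 92.4 CPM with aTC, against 58.1 and 63.9 CPM with DMSO (log2 0.46, adjusted p = 0.0588, and 0.00257 in the 4-library fit), while the 40 proteasome genes had a median log2 of 0.03. The 30 Hsf1 chaperone genes had a median of 0.01.

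CLB2, the main mitotic cyclin gene, had 111 and 116 CPM with aTC, against 138 and 135 CPM with DMSO (log2 -0.27, adjusted p = 0.0551, and 0.00365 in the 4-library fit). SIC1, for the inhibitor of S phase cyclin kinase, had 23.3 and 27.2 CPM with aTC, against 33.1 and 32.6 CPM with DMSO, and CLN1, a G1 cyclin gene, had 47.78 and 50.95 CPM with aTC, against 40.03 and 42.80 CPM with DMSO. Of 31 mitosis genes 0 were called in the 8-library fit (2 higher and 6 lower with p below 0.05 before adjustment, 1 higher and 4 lower by DESeq2). Of 50 replication genes likewise 0 were called (8 higher and 3 lower before adjustment, 0 by DESeq2). Over all 5932 tested genes, 622 were higher and 719 lower with edgeR p below 0.05 before adjustment, and DESeq2 called 125 higher and 249 lower. Of the mitosis genes 1 (3.23%) was higher and 5 (16.1%) lower in the 4-library fit, and of the replication genes 3 (6.0%) were lower, where 3.89% of all tested genes were higher and 7.97% lower. CLB2 and UBX6 had the smallest adjusted p above the threshold (both 0.0551), and RHO4 the largest under it (0.0483).

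**Figure D5:**
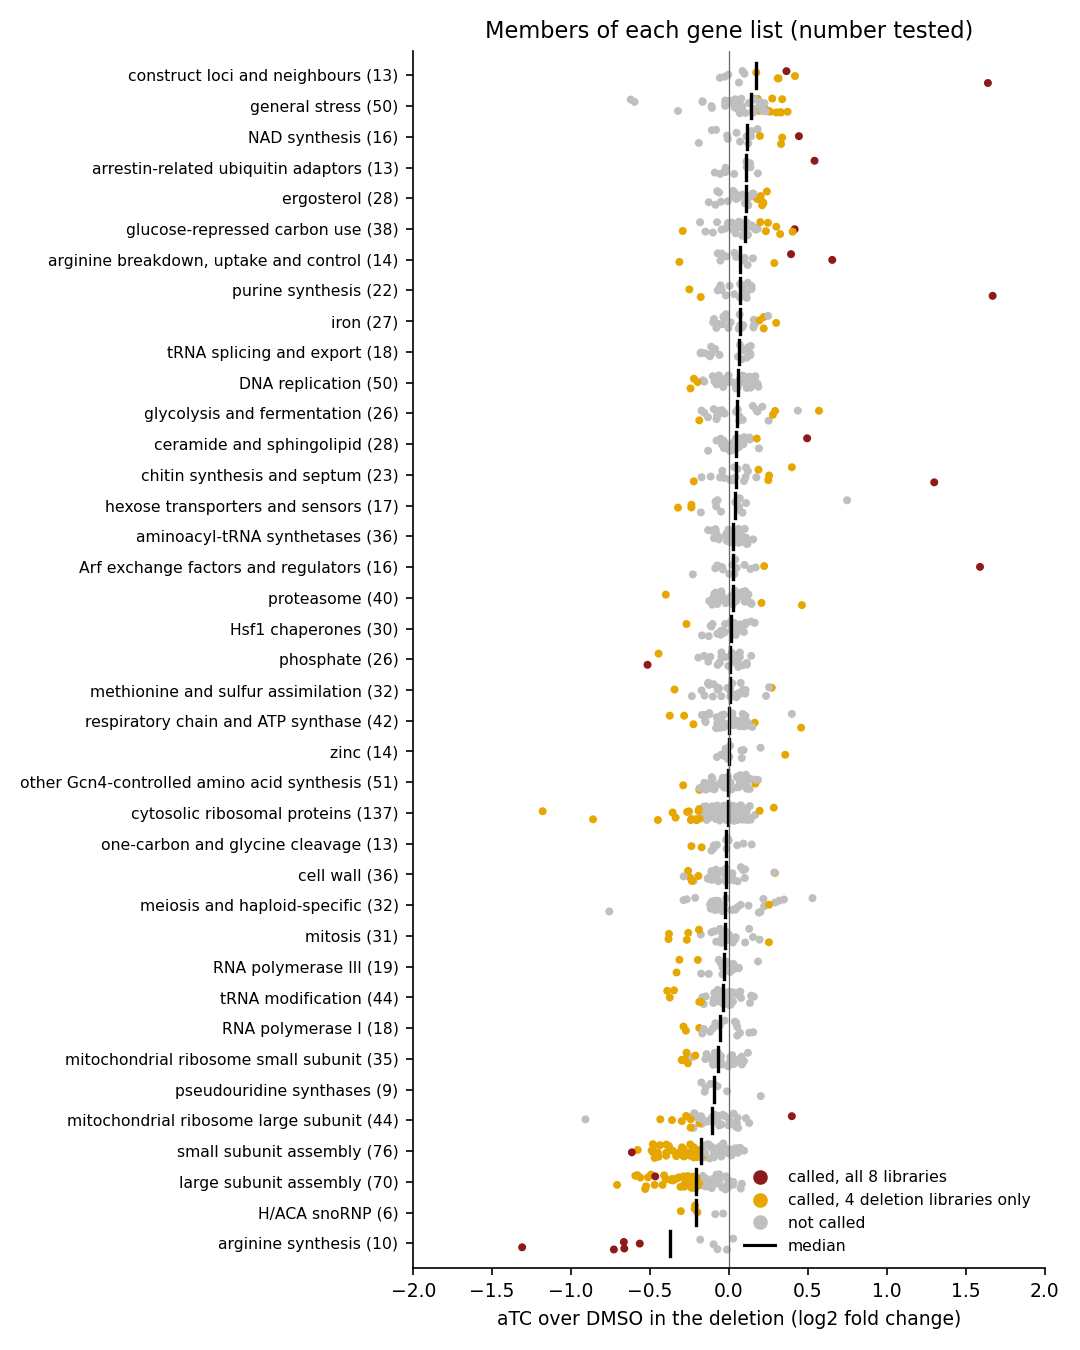
Log2 fold change in the deletion (aTC over DMSO) of each tested member of 39 gene lists, with the median as a black bar and the number tested in brackets. Dark points are called in the fit of 8 libraries, yellow points only in the fit of the 4 deletion libraries, and PUS1 is not drawn. Arginine synthesis (median -0.37), the H/ACA particle genes (-0.21) and the ribosome assembly lists have the lowest medians. The list of construct loci, neighbours and construct-related genes (0.17) and general stress (0.14) have the highest.

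A list of 13 tested genes joined those at or beside the engineered loci with others related to the construct. The latter, RNR2, its neighbour YJL027C, TUP1, CYC8 and GAL4, lie at none of the engineered loci. Of the 13, 3 were called, all higher (PUS1, MRM1 and YJL027C), where 0.354% of all tested genes were called higher. In the 4-library fit 7 (53.8%) were higher, against 3.89% of all tested genes. YOR203W, a frame that overlaps HIS3 and DED1, had 21 and 10 reads in the deletion with aTC and 0 and 0 with DMSO (adjusted p = 0.0568, and 0.003 in the 4-library fit), and was looked up after its value was seen. DED1, for a translation initiation helicase beside HIS3, had 725 and 671 CPM with aTC, against 551 and 571 CPM with DMSO (log2 0.31, adjusted p = 0.0638, and 0.00358 in the 4-library fit). URA3, the marker of the repressor construct, had 6.25 and 6.82 CPM with aTC, against 5.01 and 4.78 CPM with DMSO. TUP1, whose reads join the native gene and the TetR-Tup1 fusion, had 1002 and 961 CPM with aTC, against 772 and 813 CPM with DMSO (log2 0.31, adjusted p = 0.0576, and 0.00403 in the 4-library fit). LEA1, on the other side of PUS1, had 13.8 and 15.4 CPM with aTC, against 14.9 and 14.9 CPM with DMSO, and these overlapped.

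The response of the deletion was set against that of wild type, which shares no library with it, by testing the difference between both responses. PUS1 was the 1 gene called (0.0169% of those tested), at a log2 of 13.89 in the deletion and 2.33 in wild type, the strain whose DMSO level holds the native transcript. Of the 29 other genes called in the deletion, the 95% interval of the difference held 0 for 22. It lay above 0 for BNA4, YPC1, RHO4 and ULA1 and below 0 for PXR1, BUD20 and GFD2, without adjustment, and the edgeR adjusted p was 0.66 for each of these 7. The interval ran from -0.25 to 0.17 for ADE17, from -0.18 to 0.23 for YEL1, from -0.37 to 0.01 for SKT5 and from -0.01 to 0.63 for ARG3. A p above the threshold does not show that the strains respond alike.

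The wild-type values of these genes went the same way. All 30 had the same sign in wild type and 17 were called there too, where 0.371% of tested genes were. The shared estimate of spread means that these calls are not independent of those in the deletion. Beside PUS1, the wild-type aTC libraries lay above both DMSO libraries for the 20 genes called higher (17.1% of all tested genes do) and below for 6 of those called lower (13.2% of all). PXR1, BUD20 and GFD2 overlapped. PXR1 had 120 and 91.0 CPM in wild type with aTC, against 112 and 107 CPM with DMSO, and ARG3 had 41.95 and 55.97 CPM with aTC, against 148 and 152 CPM with DMSO.

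In the longer lists of the 4-library fit, higher and lower genes differed in this respect. Of the 231 genes higher in the deletion 206 (89.2%) had the same sign in wild type, and of the 473 lower 290 (61.3%) did, while over all tested genes the share was 59.6%. Their median log2 was 0.25 in the deletion and 0.08 in wild type for those higher, and -0.29 and -0.02 for those lower. Of the 80 ribosome assembly genes among the lower, 56 (70.0%) had the same sign in wild type, where their median was -0.02. For all 146 ribosome assembly genes the median difference between the responses was -0.18. Leaving out WT aTC replicate 2 gave -0.32, and leaving out replicate 1 of that group gave -0.04. Without WT aTC replicate 2 the test of the difference called 221 genes (3.73% of those tested), 205 of them lower in the deletion's response, and 68 were ribosome assembly genes, which is 30.8% of the called and 46.6% of that list, which makes up 2.46% of the tested genes.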

How the data were processed

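Polyadenylated RNA of 8 cultures was sequenced from directional libraries, per the labels. The authors deposited raw counts for each gene. Reads were aligned with STAR, per the submitters' processing notes, and uniquely aligned reads were counted over exons with featureCounts 2.0.1 and no strand option, per the file headers. Reads from opposite strands cannot be told apart, and 1464 of the 6663 listed genes overlap another. The genome build is not given in the sources used here. Coordinates are those of the files except where R64 is named, and symbols came from the R64 table, which matched 5931 identifiers.

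Counts were fitted with edgeR 4.0.16 (R 4.3.3), by its quasi-likelihood test with TMM scaling, filterByExpr by group (731 genes removed) and 1 mean per group, which left 4 residual degrees of freedom (2 in the fit of only the deletion libraries). CPM use TMM-scaled library sizes. Standard errors are the log2 fold change over the square root of F. DESeq2 1.42.0 and the other alternatives are reported at the end. Counting intervals are exact, cover counting error only, and take reads as independent molecules, which reads without molecular identifiers are not. The 39 gene lists, the motifs and the comparisons were chosen with earlier results of these data known, so no list was tested as a set. Named genes are all those called, the construct genes and pseudouridine synthases, and up to 4 further members of each list with the smallest p. A member of the arginine list is not reported here by name. Other members are named to complete a pathway or after their values were seen.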

Additional observations from a re-analysis of the deposited data

Results flagged for a closer look

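The response of PUS1 to aTC differed between the strains by a log2 of 11.56 (13.89 in the deletion and 2.33 in wild type, edgeR quasi-likelihood adjusted p = 3.19e-11), and this difference was itself tested in the fit of all 8 libraries. Both aTC groups lay above both DMSO groups, and the DMSO levels differed, at 0.0382 and 0.0654 CPM in the deletion and 221 and 216 CPM in wild type.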

How the results depend on the processing

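For aTC against DMSO in the deletion, the count of 30 called genes became 374 with DESeq2 and 704 in the fit of only the deletion libraries. It ran from 9 to 584 with 1 library left out. The difference between the responses called 1 gene, from 1 to 221 with 1 library left out, and the 221 came without WT aTC replicate 2. RLE scaling gave 30 calls, no scaling 28, no filter on low counts 38 and a fit without overlapping genes 23. No called gene changed sign under any of these. Of the medians of 39 gene lists, 19 changed sign with some library left out, the largest of these being 0.096 in size, while with 1 library left out that of arginine synthesis ran from -0.43 to -0.33, of large subunit assembly from -0.27 to -0.19, of small subunit assembly from -0.215 to -0.174 and of general stress from 0.11 to 0.14. The cause of the differing counts was not tested. The replicate numbers were not taken as pairs, since deviations of same-numbered libraries correlated at 0.022 between the deletion groups, the 6 pairs of groups ran from -0.156 to 0.143, and 2 were above 0.1. With replicate number as a block 38 genes were called, 27 of them among the 30. Precision is limited by 2 libraries per group rather than by depth for all but the lowest counts.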
